A study of Homo sapiens with 3 samples.

Results

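The genes described here encode the proteins of cell-cell junctions: claudins, occludin and the zonula occludens proteins of tight junctions, the junctional adhesion molecules, the classical-type cadherins and their catenins, the desmosomal cadherins with desmoplakin and plakophilins, and the connexins of gap junctions. They were chosen by gene symbol alone, and 88 of the 25247 named symbols matched, each in a single row of the deposited tables. They were measured in OCI-AML2 R50, a culture of OCI-AML2, an established cell line from acute myeloid leukaemia (AML), with and without romidepsin, an inhibitor of class I histone deacetylases. The 2 romidepsin libraries came from cells given the drug for 18 h, and the single control library from cells labelled as control. Cells of both groups were grown in 15% serum and 50 µM cytarabine (Ara-C), the nucleoside analogue of AML chemotherapy, so the control cells carried that drug too. The dose of romidepsin is not given in the sources used here, and neither is the origin of its libraries, from separate cultures or from 1. The p-values below therefore reflect the spread of this pair of libraries alone, and that spread may be technical.

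Tight junctions seal the space between epithelial or endothelial cells: claudins and occludin span the membrane, and zonula occludens proteins tie them to actin. In adherens junctions a cadherin binds its partner on the next cell and holds, inside the cell, beta-catenin or plakoglobin, which bind alpha-catenin and through it actin. Beta-catenin is also the transcriptional effector of Wnt signalling. Leukaemia cells grow in suspension and form few such junctions, but blood cells use several of these proteins, among them the junctional adhesion molecules.

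The 88 junction genes summed to 207 and 209 FPKM in the romidepsin libraries and 117 FPKM in the control. Levels are FPKM values as the authors deposited them, which scale fragments by gene length and library depth. Changes are romidepsin minus control on the log2(FPKM + 1) scale, which understates the change of low genes. Testing needed 1 FPKM in at least 1 of the libraries, which 17 of the 88 junction genes and 11708 genes in all did. The summed FPKM was 668773 and 657213 in the romidepsin libraries and 790922 in the control. Read from the steps between low values, the libraries held about 22500000 and 21700000 fragments after romidepsin and 19300000 in the control. That estimate is rough, since only 57.9% to 59.6% of the low values fell within 0.2 of a whole fragment, where 40% would with no steps at all. At that depth a single fragment on a gene of 2 kb is worth 0.0222 to 0.0259 FPKM. Lineage genes fitted the label: LYZ, the lysozyme gene of myeloid cells, stood at 2630 and 2600 FPKM after romidepsin and 4260 FPKM in the control, and HBA1, HBB and MS4A1 were listed at 0 in all 3 libraries. An exact 0 is read with care, because SLC25A6, HLA-B and HLA-C, which nearly all cells express, were also listed at 0.

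With 1 added to each FPKM before the logarithm, JUP and F11R had the largest changes of the junction genes, and both rose. With 0.1 added, TJP3, listed at 0 in the control, came first at 5.07, against 4.78 for JUP and 2.76 for F11R. JUP encodes plakoglobin, a catenin of both adherens junctions and desmosomes, and F11R encodes JAM-A, an immunoglobulin-like adhesion molecule of tight junctions that leukocytes and platelets also carry. TJP3, CDH24 and CLDN7 also rose at least 2-fold in both romidepsin libraries, while beta-catenin (CTNNB1) did not pass the test. No tested junction gene fell 2-fold. CDH26, below the filter for testing, had 0.0792 and 0.0927 FPKM after romidepsin and 0.214 FPKM in the control. By limma with Benjamini-Hochberg adjustment over all genes, 13 of the 17 tested members were higher and PKP4 was lower. Over all 11708 genes 34.7% were called higher and 41.8% lower. The 2-fold rule asked for a log2(FPKM + 1) difference of at least 1 in both romidepsin libraries. It was met by 5 members, against 7.43% of all tested genes higher and 3.08% lower. OCLN and GJC1, over 2 times the control in FPKM, did not meet it.

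The filter fixed part of that count. Of the 17 tested members, 8 were under 1 FPKM in the control and were tested only because a romidepsin library was higher (JUP, TJP3, CLDN7, OCLN, GJC1, CTNNA2, CLDN23 and JAM3). Among all 870 such genes 86.8% were called higher and 40.7% were 2-fold higher, so their direction is no result about junction genes. The other 9 were at 1 FPKM or more in the control: 6 of them were called higher and 1 lower, where 30.5% and 45.2% of the 10838 genes at that level were. Their median log2 difference was 0.39, against -0.10 for those 10838 genes. F11R and CDH24 were the 2 of these 9 that rose 2-fold, against 4.76% of the 10838 genes (3.33% were 2-fold lower). Scaling the libraries to the same sum moved the median of all 11708 genes by 0.21 (0.16 so scaled, -0.05 as deposited). With that scaling 5705 genes were called higher and 3069 lower, against 4057 and 4896 as deposited, and of the members 14 were higher and 0 lower.

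**Figure D1:**
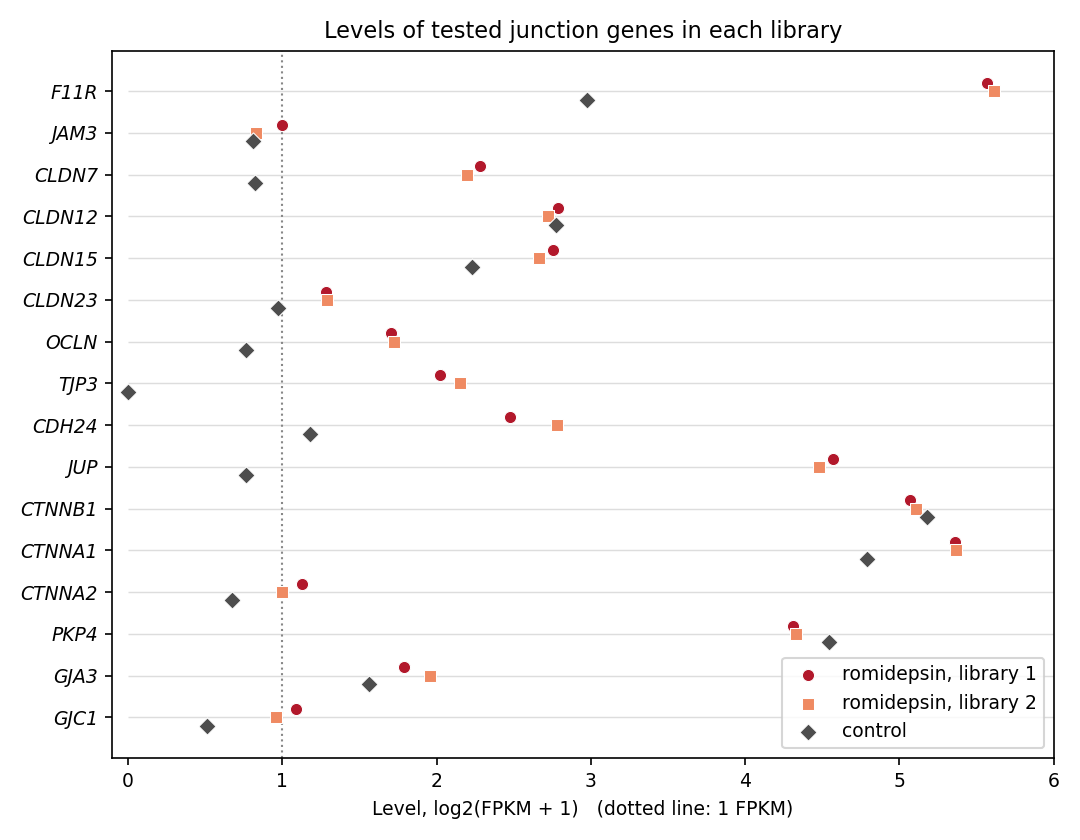
Level of each tested junction gene named in the text on the log2(FPKM + 1) scale (x axis), with a point for each romidepsin library and for the control and a dotted line at 1 FPKM. The romidepsin points stand well to the right of the control for JUP, F11R, TJP3, CDH24 and CLDN7, and next to it for CTNNB1, CLDN12 and JAM3.

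Among the catenins, the level of JUP changed most. JUP stood at 22.7 and 21.3 FPKM in the romidepsin libraries and at 0.701 FPKM in the control. Both romidepsin values lay far above the control, at 32.3 and 30.4 times its level. The mean was 22 ± 0.961 FPKM (SD, n = 2), and the log2 difference of 3.76 (SE 0.0663, limma adjusted p = 5.89e-08) ranked 8 of the 11708 genes from the top. JUP was tested only through romidepsin, as were all 870 tested genes under 1 FPKM in the control, of which 40.7% were 2-fold higher.

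CTNNB1, the closest relative of JUP among the members, had 32.6 and 33.4 FPKM after romidepsin and 35.2 FPKM in the control. Its log2 difference of -0.09 (SE 0.0429) did not pass the limma test (adjusted p = 0.0986), and once the libraries were scaled to the same sum it was called 0.15 higher (adjusted p = 0.0213). JUP made up 41.0% and 38.9% of the summed level of JUP and CTNNB1 after romidepsin and 1.95% in the control. The sum itself was 55.3 and 54.7 FPKM, against 35.9 FPKM.

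The promoters of these relatives are shown because one gene moved over 30-fold in level and the other did not pass the test. Each window is 300 bases, most of it upstream of a RefSeq start site (GRCh38.p14, a later build than the hg19 named for these files, matched by symbol). Capitals mark CAGGTG, the E-box that SNAI and ZEB factors bind, and GGGCGG, the GC box, on either strand (CACCTG and CCGCCC on the strand printed).
JUP chr17:41785927-41786226 (minus strand): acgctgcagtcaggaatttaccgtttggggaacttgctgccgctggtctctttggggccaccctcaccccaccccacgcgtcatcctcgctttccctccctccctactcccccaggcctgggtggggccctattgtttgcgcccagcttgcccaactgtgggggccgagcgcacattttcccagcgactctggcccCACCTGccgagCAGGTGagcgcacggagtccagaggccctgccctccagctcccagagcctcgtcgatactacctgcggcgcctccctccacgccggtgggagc
JUP chr17:41786662-41786961 (minus strand): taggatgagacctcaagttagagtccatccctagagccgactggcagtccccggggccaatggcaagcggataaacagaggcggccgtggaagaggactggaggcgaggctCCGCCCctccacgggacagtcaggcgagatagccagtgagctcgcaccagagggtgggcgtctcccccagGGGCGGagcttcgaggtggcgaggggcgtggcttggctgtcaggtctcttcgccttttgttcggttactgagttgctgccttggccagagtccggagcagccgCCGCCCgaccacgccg
CTNNB1 chr3:41199255-41199554 (plus strand): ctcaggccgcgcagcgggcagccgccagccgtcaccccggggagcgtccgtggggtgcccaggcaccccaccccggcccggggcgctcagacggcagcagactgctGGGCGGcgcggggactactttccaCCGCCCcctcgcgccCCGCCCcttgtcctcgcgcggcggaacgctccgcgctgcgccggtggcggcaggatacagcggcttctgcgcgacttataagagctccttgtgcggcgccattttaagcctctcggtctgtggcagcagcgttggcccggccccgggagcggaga

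The JUP window at the lower coordinates held 2 E-boxes and 0 GC boxes, and the other held 0 E-boxes and 3 GC boxes. The CTNNB1 window also had 3 GC boxes, with 0 E-boxes. GC content was 66.7% and 65.3% in the JUP windows and 74.0% in that of CTNNB1, against a median of 58.7% over all 35116 windows of this length. An E-box stood in 20.6% of those windows and a GC box in 45.0%. These matches describe letters in a window and show neither binding nor use of a start site.

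Alpha-catenin links the cadherin complex to actin. CTNNA1, its widely expressed form, had 40.1 and 40.3 FPKM after romidepsin and 26.6 FPKM in the control. The pair differed by far less than either did from the control, and the log2 difference was 0.58 (SE 0.0411, limma adjusted p = 1.21e-05). CTNNA2, the neuronal form, had 1.19 and 0.996 FPKM after romidepsin and 0.597 FPKM in the control. It was called higher (log2 0.39, limma adjusted p = 0.0327), but with quantile normalization it was 0.15 lower and not called (adjusted p = 0.415). CTNNA3 reached at most 0.138 FPKM in any library, and CTNND2 was listed at 0. Reads of CTNND1, which encodes p120-catenin, were given only in a row joined with TMX2, so it is not among the members; that row had 50.5 and 50.3 FPKM after romidepsin and 66.8 FPKM in the control (log2 -0.40, limma adjusted p = 4.92e-05).

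The cadherins themselves were at or near 0 in these tables, CDH24 apart. Of 23 symbols, 14 were listed at 0 in all 3 libraries, among them CDH2, which encodes N-cadherin. CDH1, which encodes E-cadherin, was listed at 0 in the first romidepsin library and the control and at 0.00869 FPKM in the second romidepsin library. CDH5, the cadherin of endothelium, reached at most 0.0388 FPKM. CDH1, CDH2 and CDH5 were picked for their known roles after the values were seen.

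CDH24, a type II cadherin, was the only cadherin that reached 1 FPKM. It had 4.57 and 5.88 FPKM in the romidepsin libraries and 1.27 FPKM in the control, so that both romidepsin values were over 3 times the control. The mean was 5.22 ± 0.926 FPKM (SD, n = 2), a widely spaced pair, and the log2 difference was 1.45 (SE 0.130, limma adjusted p = 3.82e-05). CDH24 held 84.8% and 89.2% of the summed cadherin level after romidepsin and 76.4% in the control. The next highest, CDH23, a long cadherin of inner ear hair cells, had 0.489 and 0.341 FPKM after romidepsin and 0.138 FPKM in the control.

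**Figure D2:**
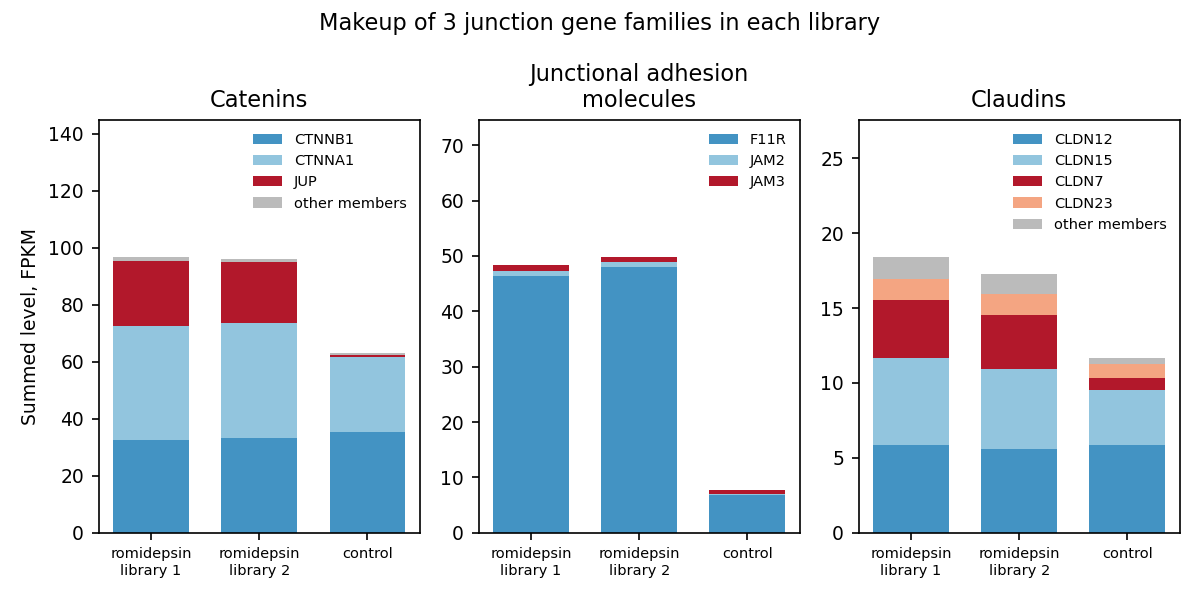
Summed level in FPKM (y axis, from 0) of the catenins, junctional adhesion molecules and claudins in the 2 romidepsin libraries and the control, split by gene, with each panel on its own scale. The JUP share of the catenins, the F11R share of the adhesion molecules and the CLDN7 share of the claudins are larger after romidepsin, while CTNNB1 and CLDN12 keep nearly the same height.

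F11R reached the highest level of any junction gene after romidepsin. It stood at 46.4 and 48.0 FPKM in the romidepsin libraries and at 6.87 FPKM in the control, 6.75 and 6.98 times the control level. The mean was 47.2 ± 1.11 FPKM (SD, n = 2). Exons of F11R overlap those of AL591806.3 on the same strand, and the part of that gene in the F11R value was not tested. With 6.87 FPKM in the control, F11R did not owe its test to the filter, and its log2 difference of 2.61 (SE 0.0468, limma adjusted p = 5.89e-08) ranked 55 of 11708 from the top.

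Its relatives were far lower. JAM3, which encodes JAM-C, had 1.0 and 0.780 FPKM after romidepsin and 0.757 FPKM in the control (log2 0.10, SE 0.142, limma adjusted p = 0.527), and the second romidepsin library was close to the control. JAM2, which encodes the endothelial JAM-B, stayed below 1 FPKM, at 0.920 and 0.973 FPKM after romidepsin and 0.163 FPKM in the control. F11R was 96.0% and 96.5% of the summed level of these 3 genes after romidepsin and 88.2% in the control. Exons of JAM3 overlap those of NCAPD3 on the opposite strand in the GENCODE annotation of GRCh38. NCAPD3 had 42.6 and 42.0 FPKM after romidepsin and 34.4 FPKM in the control, and its part in the JAM3 value was not tested.

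Zonula occludens proteins are the scaffolds of the tight junction. TJP3 was listed at 0 in the control and had 3.07 and 3.44 FPKM in the romidepsin libraries. Its log2 difference was 2.09 (SE 0.117, limma adjusted p = 3.91e-06), and no fold is given against a value of 0. TJP1, the best known of these genes, was listed at 0 in all libraries.

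Claudins set the charge and size selectivity of tight junctions, and occludin is a further membrane protein there. Of 24 claudin symbols, 9 were listed at 0 in all libraries, 11 more stayed under 1 FPKM, and 4 were tested. CLDN7, an epithelial claudin, had 3.86 and 3.58 FPKM in the romidepsin libraries and 0.770 FPKM in the control. Both romidepsin values were over 4 times the control, and the log2 difference was 1.42 (SE 0.0993, limma adjusted p = 1.12e-05). Exons of CLDN7 overlap those of AC003688.1 on the same strand and those of ELP5 on the opposite strand. Whether the counting used strand is not given in the sources used here. ELP5 went the other way, with 25.4 and 24.4 FPKM after romidepsin and 42.1 FPKM in the control (log2 -0.74, limma adjusted p = 7.1e-06). The part of either overlapping gene in the CLDN7 value was not tested.

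The other claudins changed less. CLDN15 had 5.76 and 5.35 FPKM after romidepsin and 3.70 FPKM in the control, a rise of 0.48 (SE 0.0795, limma adjusted p = 0.000996), or of 0.31 with quantile normalization. CLDN12 had 5.89 and 5.59 FPKM after romidepsin and 5.85 FPKM in the control, which lay between the romidepsin values (log2 -0.02, SE 0.0722, limma adjusted p = 0.769). Its exons overlap those of GTPBP10 and CDK14, so its level is uncertain. GTPBP10 had 10.9 and 11.9 FPKM after romidepsin and 15.3 FPKM in the control. CDK14 had 9.54 and 8.78 FPKM after romidepsin and 8.10 FPKM in the control. CLDN12 was the highest claudin in the control, with 50.2% of the summed claudin level there and 32.0% and 32.4% after romidepsin. CLDN7 was 21.0% and 20.7% of that sum after romidepsin and 6.60% in the control. CLDN23 had 1.44 and 1.45 FPKM after romidepsin and 0.965 FPKM in the control; its call (log2 0.31, limma adjusted p = 0.0414) was lost with quantile normalization, where it was 0.06 lower (adjusted p = 0.631). CLDN1, an epithelial claudin under the filter, had 0.612 and 0.620 FPKM after romidepsin and 0.0749 FPKM in the control.

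OCLN, the occludin gene, had 2.26 and 2.30 FPKM in the romidepsin libraries and 0.702 FPKM in the control. The pair was close together and over 3 times the control (log2 0.95, SE 0.109, limma adjusted p = 0.000143). With quantile normalization the difference was 0.54 (adjusted p = 0.0113).

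The promoter windows of CLDN7 and TJP3 are shown because both genes were under 1 FPKM in the control and rose at least 2-fold. They come from the same RefSeq table, with the same capitals.
CLDN7 chr17:7262429-7262728 (minus strand): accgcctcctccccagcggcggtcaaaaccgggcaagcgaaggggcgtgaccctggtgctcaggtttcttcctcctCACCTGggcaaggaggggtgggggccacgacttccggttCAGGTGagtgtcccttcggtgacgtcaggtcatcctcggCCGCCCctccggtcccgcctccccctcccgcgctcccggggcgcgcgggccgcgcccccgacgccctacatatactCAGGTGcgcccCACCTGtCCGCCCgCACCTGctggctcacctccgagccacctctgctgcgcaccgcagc
CLDN7 chr17:7263164-7263463 (minus strand): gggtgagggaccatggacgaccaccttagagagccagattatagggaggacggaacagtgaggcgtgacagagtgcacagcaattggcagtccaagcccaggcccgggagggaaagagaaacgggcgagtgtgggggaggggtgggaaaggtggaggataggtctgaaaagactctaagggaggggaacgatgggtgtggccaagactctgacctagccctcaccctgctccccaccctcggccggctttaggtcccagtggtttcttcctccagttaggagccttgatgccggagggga
TJP3 chr19:3708134-3708433 (plus strand): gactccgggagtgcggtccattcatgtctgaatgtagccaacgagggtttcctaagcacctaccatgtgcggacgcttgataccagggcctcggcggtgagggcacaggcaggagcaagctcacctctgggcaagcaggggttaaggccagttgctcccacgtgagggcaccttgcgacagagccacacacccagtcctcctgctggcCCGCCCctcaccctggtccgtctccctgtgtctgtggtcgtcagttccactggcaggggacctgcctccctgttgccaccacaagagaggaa
TJP3 chr19:3721487-3721786 (plus strand): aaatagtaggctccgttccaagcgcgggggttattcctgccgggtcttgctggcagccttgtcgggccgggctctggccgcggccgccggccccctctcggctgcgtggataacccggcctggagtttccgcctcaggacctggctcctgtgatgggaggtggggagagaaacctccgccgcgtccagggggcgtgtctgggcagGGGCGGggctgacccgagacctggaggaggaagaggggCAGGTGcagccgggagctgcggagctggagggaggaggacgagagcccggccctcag

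The CLDN7 window at the lower coordinates held 5 E-boxes and 2 GC boxes, and the other held 0 of either. As many as 5 E-boxes stood in 33 of the 35116 windows (0.0940%). The first TJP3 window had 0 E-boxes and 1 GC box and the second had 1 of each. Windows on chromosome 8 were left out of the member windows. In all, 11 of the 17 tested members had a window, with 22 start sites, of which 6 held an E-box and 13 a GC box. CCAAT stood in 8 of the 22 and TATAAA in 2, on either strand, against 34.6% and 11.5% of all windows. F11R, CDH24, JAM3, CLDN23 and GJC1 were among those without a window.

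Desmosomes join cells through intermediate filaments. None of the 7 desmosomal cadherins reached 1 FPKM, and 6 of them were listed at 0 in all libraries. DSC2, which encodes desmocollin 2, had 0.349 and 0.426 FPKM after romidepsin and 0.415 FPKM in the control. DSP, the desmoplakin gene, reached at most 0.00470 FPKM. JUP and PKP4 apart, no desmosomal gene was above 0.426 FPKM in any library.

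Plakophilins are armadillo proteins of the desmosomal plaque. PKP4, which is also found in adherens junctions, was the only one above 1 FPKM and the only member called lower. It had 18.8 and 19.1 FPKM after romidepsin and 22.3 FPKM in the control (log2 -0.23, SE 0.0474, limma adjusted p = 0.00327). Between libraries scaled to an equal sum the difference was 0.00 (adjusted p = 0.968). PKP1 and PKP2 were listed at 0, and PKP3 reached at most 0.0518 FPKM.

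Connexins form gap junction channels. Of 16 symbols, 4 were listed at 0 in all libraries and 10 others stayed under 1 FPKM, among them GJA1, the widely expressed connexin 43 gene, at no more than 0.0617 FPKM. GJA3, a connexin of the lens, had 2.45 and 2.88 FPKM after romidepsin and 1.96 FPKM in the control (log2 0.31, limma adjusted p = 0.0351), a call lost with quantile normalization (log2 0.03, adjusted p = 0.819) and with no filter on low values (adjusted p = 0.149). GJC1 had 1.13 and 0.941 FPKM after romidepsin and 0.424 FPKM in the control (log2 0.51, limma adjusted p = 0.0115), but was 0.09 lower with quantile normalization (adjusted p = 0.623). Reads of GJA9 were given in a row joined with MYCBP, which is no connexin, so GJA9 is not among the members.

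**Figure D3:**
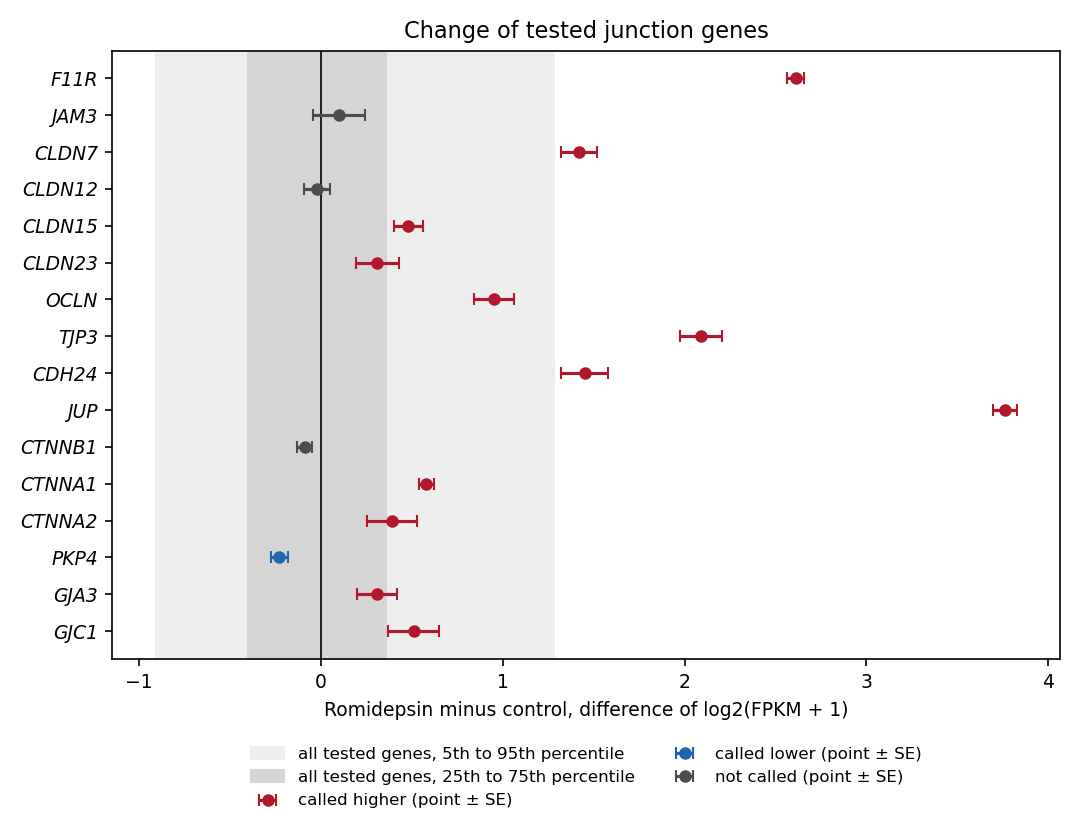
Romidepsin minus control on the log2(FPKM + 1) scale (x axis) for the tested junction genes named in the text, each point with its standard error from limma, over bands for the middle of all 11708 tested genes. JUP at 3.76, F11R at 2.61, TJP3 at 2.09, CDH24 at 1.45 and CLDN7 at 1.42 lie beyond the 95th percentile of all genes, which is 1.28. Of these, JUP, TJP3 and CLDN7 were under 1 FPKM in the control and were tested only through romidepsin.

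Of the 71 junction genes below the filter, 37 were listed at 0 in every library and 34 had some signal. Of all 25247 named symbols, 8515 were listed at 0 in every library. Of the 34 junction genes with some signal, 27 and 30 were above 0 in the romidepsin libraries and 15 in the control. Their summed level was 4.74 and 4.83 FPKM after romidepsin and 1.60 FPKM in the control. Both romidepsin libraries were above the control for 18 of them and below it for 5, and 11 overlapped it. Of all 5024 genes with some signal below the filter, 46.2% had both romidepsin libraries above the control and 20.8% below it. For 19 of the 34 no library reached 0.1 FPKM, which at this depth is a few fragments on a gene of 2 kb.

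Genes that work beside these proteins were read from lists of related genes. For these related lists, the counts are of genes at 1 FPKM or more in the control, where 30.5% of all genes were called higher and 45.2% lower, and the median was -0.10. Of 10 partners of the adherens junction plaque, 8 were higher and 1 lower (median 0.50). VCL, which encodes the actin linker vinculin, had 52.7 and 53.0 FPKM after romidepsin and 19.4 FPKM in the control (log2 1.40, limma adjusted p = 2.96e-07). BAIAP2, a regulator of membrane and actin, rose by 1.12. ACTN1, an actin crosslinker, fell by 0.33 as deposited, but was not called with the same-sum scaling (log2 -0.10, adjusted p = 0.0645) or quantile normalization (log2 -0.10, adjusted p = 0.0678). AJUBA, a LIM protein that binds alpha-catenin, was under 1 FPKM in the control and rose by 1.58.

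Of 4 nectin and immunoglobulin-like genes at that level, 3 were higher and 0 lower (median 0.30). The 3 were PVRL1, PVRL2 and MLLT4, named after their values were seen. PVRL2, which encodes nectin 2, had 45.4 and 45.0 FPKM after romidepsin and 29 FPKM in the control (log2 0.63, limma adjusted p = 7.61e-06), and MLLT4, the afadin gene, rose by 0.38. The largest change in the list was in ESAM, an adhesion molecule of endothelium and platelets related to F11R. ESAM had 7.36 and 7.67 FPKM after romidepsin and 0.0594 FPKM in the control (log2 3.01, limma adjusted p = 2.96e-07). CADM4 and CXADR, the coxsackievirus and adenovirus receptor, were also under 1 FPKM in the control and rose by 1.16 and 1.04, though CXADR was not called with quantile normalization (log2 0.46, adjusted p = 0.0592).

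Polarity and plaque proteins place the junction along the cell side. At 1 FPKM or more in the control, 6 of 13 were higher and 3 lower (median 0.14). LLGL2, a basolateral polarity protein, had 6.23 and 6.11 FPKM after romidepsin and 2.17 FPKM in the control (log2 1.18, limma adjusted p = 7.89e-06). YBX3, a transcription factor that binds TJP1, fell by 0.86, SYMPK, which acts in RNA 3' end formation, by 0.72 and LIN7A by 0.60. PARD6A, a partner of atypical protein kinase C, and LIN7B were under 1 FPKM in the control and rose by 1.01 and 0.85; the call of LIN7B was lost with quantile normalization (log2 0.50, adjusted p = 0.0552).

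In the beta-catenin pathway 10 of 19 were higher and 5 lower (median 0.13). The corepressor gene TLE3 rose by 0.90, BCL9L, a coactivator of beta-catenin, by 0.73 and TCF7L2, its DNA-binding partner, by 0.69. AMER1, a scaffold of the beta-catenin destruction complex, had 1.35 and 1.28 FPKM after romidepsin and 4.09 FPKM in the control (log2 -1.14, limma adjusted p = 3.89e-05). DVL1 fell by 0.79 and AXIN1, another destruction complex scaffold, by 0.67. AXIN2, a Wnt target, was listed at 0 in all libraries.

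Factors that repress cadherin genes, with their partners, went both ways: 2 of 4 at 1 FPKM or more in the control were higher and 2 lower (median 0.01). ZEB2, a zinc finger repressor of CDH1, had 24.3 and 24.9 FPKM after romidepsin and 49.2 FPKM in the control (log2 -0.97, limma adjusted p = 1.44e-06). TCF3, which encodes the E-proteins E12 and E47, fell by 0.31 as deposited, but was not called when scaled to the same sum (log2 -0.07, adjusted p = 0.297) or by quantiles (log2 -0.18, adjusted p = 0.0736). SNAI1, the Snail repressor of CDH1, had 15.1 and 14.2 FPKM after romidepsin and 0.886 FPKM in the control (log2 3.06, limma adjusted p = 1.43e-07). SNAI3, of the same family and also under 1 FPKM in the control, rose by 1.98. ID1, which is no repressor of cadherins itself but binds TCF3 and TCF4, had 7.38 and 6.28 FPKM after romidepsin and 1.04 FPKM in the control and rose by 1.94. SNAI2 was listed at 0.

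**Figure D4:**
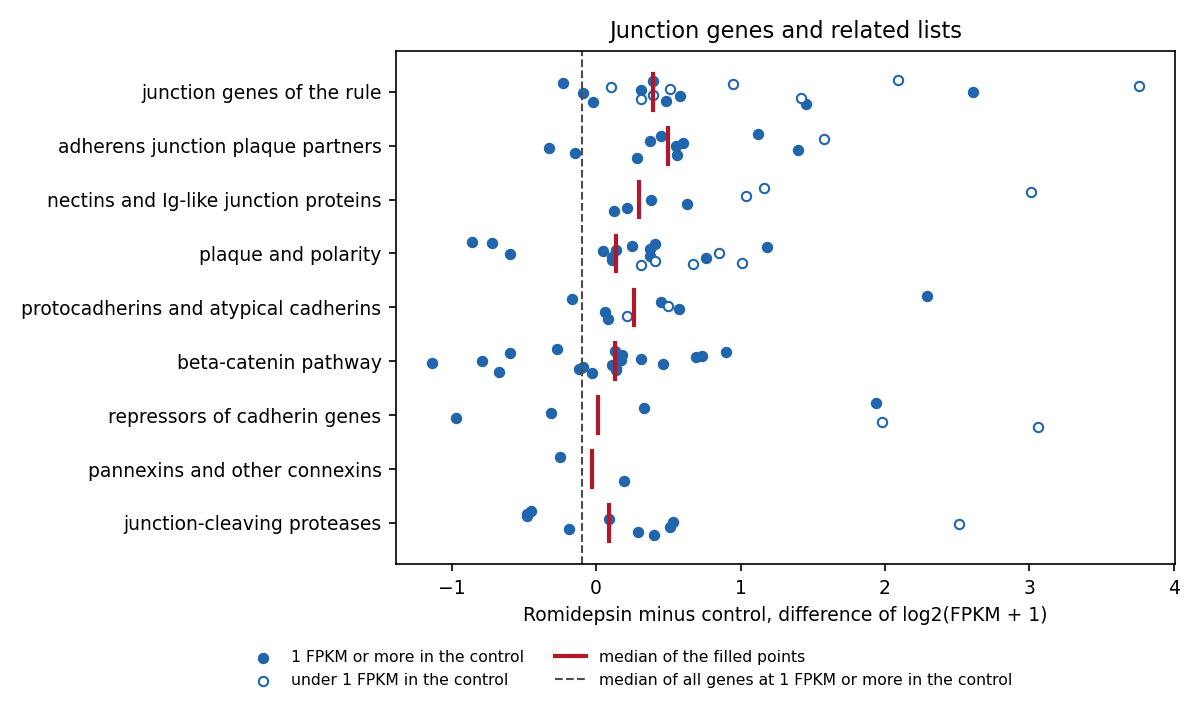
Romidepsin minus control on the log2(FPKM + 1) scale (x axis) for the tested junction genes and the tested genes of 8 lists of related genes, filled where the control was at 1 FPKM or more and open where it was not, with the median of the filled points as a red bar. The bars of these 8 lists lie between -0.03 and 0.50, and the dashed line is the median of all genes at 1 FPKM or more in the control, -0.10.

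Markers of cells that build such junctions were checked beside these results. Here the counts take in all tested genes, of which those under 1 FPKM in the control were tested only through romidepsin (86.8% of all such genes were called higher). At 1 FPKM or more in the control, 30.5% of all genes were called higher and 45.2% lower. Of 20 epithelial markers, 4 were tested and 3 of them were higher, against 2 of 3 at 1 FPKM or more in the control. Their summed level was 57.9 and 60.0 FPKM after romidepsin and 27.0 FPKM in the control, most of it in ST14 and SPINT1, a membrane protease and its inhibitor. ST14 had 28.6 and 29 FPKM after romidepsin and 20.5 FPKM in the control, and SPINT1 had 25.3 and 27.5 FPKM, against 5.09 FPKM. EPCAM, KRT5, KRT14, KRT18, KRT19 and RAB25 were listed at 0 in all libraries. Of 12 endothelial markers, 4 were tested, 3 higher and 1 lower, against 1 higher and 1 lower of 2 at 1 FPKM or more in the control. Their sum was 46.2 and 44.6 FPKM after romidepsin and 39.1 FPKM in the control, with KDR, ROBO4 and EMCN at 0.

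The 5 tested fibroblast markers of 9 were all higher, but 4 of them were under 1 FPKM in the control. THY1, a surface glycoprotein and the 1 above that level, rose by 2.08, COL1A1 by 1.74 and PDGFRB by 1.59. The list had a sum of 18.3 and 17.9 FPKM after romidepsin and 1.98 FPKM in the control and COL1A2 at 0. Lymphoid and erythroid markers summed to 3.07 and 3.05 FPKM after romidepsin and 1.06 FPKM in the control. Among all genes at 1 FPKM or more in the control, 30.5% were called higher and 45.2% lower. Of the 14 myeloid leukaemia markers, all tested, 5 were higher and 8 lower (4 and 8 of the 13 at 1 FPKM or more in the control). CTSG, ELANE and PRTN3, granule proteases, were the lowest of them in change (-1.61, -1.31 and -1.24). Of those called higher, ANPEP, at 0.654 FPKM in the control, rose by 1.93, CSF1R by 0.77 and PTPRC by 0.43. The 14 markers summed to 5240 and 5180 FPKM in the romidepsin libraries, against 9330 FPKM in the control. The part of these markers in the junction results was not tested. In such bulk samples fewer cells of a type and less RNA per cell cannot be told apart, and because the control is 1 library, differences from culture to culture and those of romidepsin cannot be told apart either.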

How the data were processed

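RNA sequencing of 1 control and 2 romidepsin libraries was read from the FPKM tables the authors deposited (unit per the file headers). Per the submitters' processing notes, the tools were TopHat, Cufflinks and Cuffdiff and the build was hg19. No version, setting or annotation is given in the sources used here.

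Rows of a symbol were summed. The 1770 rows with no gene name (21.1% to 22.3% of the summed FPKM) and 27 rows named by a bare number were left out. Genes with at least 1 library at 1 FPKM were tested on log2(FPKM + 1) by limma 3.58.1 (lmFit and eBayes with trend; R 4.3.3). P-values were adjusted by Benjamini-Hochberg over the 11708 genes, with calls at 0.05. Only the romidepsin pair gives spread (residual degrees of freedom 1, prior 6.06), and the lone control was assumed to vary likewise. The fit was tested on simulated data in which all 3 libraries had the spread of the romidepsin pair, which cannot test that assumption. The 2-fold rule had no test and used a log2 difference of 1 in both romidepsin libraries. Python 3.11.15, pandas 2.3.3 and matplotlib 3.10.9 were used. The members and lists were chosen with earlier results of these data known. Named genes were the tested members, the 5 highest untested ones, and up to 3 called genes in each direction for each list. Alternatives were another pseudocount, filter, scaling or row choice, no trend, and leaving out each romidepsin library. Some genes that this rule names are not reported here. No row above 0 had the same value in both romidepsin files.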

Additional observations from a re-analysis of the deposited data

How the results depend on the processing

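The 17 tested members were refitted under up to 7 alternatives, giving 116 values, of which 105 kept the direction and the side of the threshold, 3 lost the call and 8 turned. The calls of CTNNA2 and GJA3 were lost with no filter (adjusted p = 0.070 and 0.149), and that of GJA3 with quantile normalization. Quantile normalization turned CLDN23 (-0.06), CTNNA2 (-0.15), GJC1 (-0.09), CTNNB1 (0.05) and JAM3 (-0.42), and left 9 members called higher. Scaling to the same sum turned CTNNB1 (0.15), CLDN12 (0.18) and PKP4 (0.00), and left 0 members and 3069 genes in all called lower. With no filter 2 members were called lower, PKP4 and CDH26. Counting only genes at 1 FPKM or more in the control, which was chosen after seeing the data, gave 6 members called higher and 2 of them 2-fold higher. Without romidepsin replicate 1 or 2 the number 2-fold higher was 5 each time; limma calls could not be made with 1 library against 1. No paired analysis was possible because the control is 1 library, so that the groups share fewer than 2 replicate numbers. The cause of these changes was not tested. The single control and the low depth of members near 1 FPKM limit all of these results.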

Other observations

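Proteases that cut cadherins and junctional adhesion molecules were split. At 1 FPKM or more in the control, 4 of 9 were called higher and 4 lower by limma. Among all genes at that level, 30.5% were called higher and 45.2% lower. MMP14, a membrane metalloprotease, had 64.1 and 61.4 FPKM after romidepsin and 43.3 FPKM in the control, and ADAM17, a sheddase, rose by 0.51. Of those called lower, 3 encode parts of gamma-secretase: APH1A and NCSTN were both 0.48 lower and PSENEN 0.45 lower. The other was ADAM15, a membrane metalloprotease, at 0.19 lower, which was not called when libraries were scaled to 1 sum (log2 0.04, adjusted p = 0.382) or by quantile normalization (log2 -0.04, adjusted p = 0.335). MMP9, a gelatinase, was under 1 FPKM in the control (0.487 FPKM) and had 6.92 and 8.04 FPKM after romidepsin (log2 2.51, limma adjusted p = 1.04e-06).

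Of 6 protocadherin-related genes at 1 FPKM or more in the control, 3 were called higher and 1 lower. The shares among all genes at that level were 30.5% higher and 45.2% lower. CLSTN3, a calsyntenin of synapses, had 13.7 and 15.0 FPKM after romidepsin and 2.14 FPKM in the control (log2 2.29, limma adjusted p = 4.22e-07). CELSR2, a planar polarity cadherin, rose by 0.57. DCHS2, under 1 FPKM in the control, was 0.50 higher (limma adjusted p = 0.0120), but 0.01 lower by quantile normalization. CLSTN2 was called 0.17 lower as deposited (limma adjusted p = 0.0105), and was 0.06 higher and not called when libraries were scaled to 1 sum (adjusted p = 0.301). Of the pannexins and the connexins that the gene symbol rule did not take in, PANX1 was called 0.19 higher (not called by quantile normalization, adjusted p = 0.061) and GJD3, a connexin, was called 0.25 lower (not called when libraries were scaled to 1 sum, adjusted p = 0.640).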
